A study of Xenopus laevis with 10 samples.

Results

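Enteric neurons and glia are the nerve cells and supporting cells inside the gut wall. RNA of 6 genes used as their markers was measured in the intestine of fed and unfed Xenopus laevis tadpoles. The genes were erbb3, sox10, ret, elavl4, nos1 and vip. Xenopus laevis is an allotetraploid frog, and most of its genes have an L and an S copy, named for the longer and the shorter of 2 related chromosomes. The 6 names matched 12 genes among 34309 in the deposited tables, and each gene was represented by the transcript variant with the highest total count. For 2 of the 12, no L or S symbol was found, and they are called nos1-like (deposited as "nitric oxide synthase, brain-like") and elavl4-like (deposited as "ELAV-like protein 4"). Whether these are the S copies is not known from the files. The study sequenced RNA from 10 pools of intestinal tubes of tadpoles raised at 19 °C. Of these, 5 pools came from fed tadpoles and 5 from unfed tadpoles, and 20 to 26 tubes were taken for each stage. The libraries were made in 2 experiments: the first covered 10 and 13 days post fertilization (dpf) and the second 10, 13 and 16 dpf, with a single library for each feeding state at each age. No genotype, strain or food is named in the labels, and they do not say whether the pools came from separate clutches, so p-values measure only the spread between these libraries. In experiment 1, a fed library titled 13 dpf carries 10 dpf in its stage field and an unfed library titled 10 dpf carries 13 dpf, and the titles were used.

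The enteric nervous system arises from neural crest cells that enter the gut and spread along it. Their progenitors carry the receptor RET, which responds to GDNF, a growth factor made by the gut mesenchyme. SOX10 is a transcription factor of crest progenitors that glia keep, and ERBB3 is the neuregulin receptor on which crest-derived glia depend. ELAVL4 (HuD) is an RNA-binding protein of differentiated neurons. NOS1 makes nitric oxide and VIP is a neuropeptide, and the inhibitory motor neurons that relax gut muscle use both. Not all of these genes are confined to enteric neurons and glia in vertebrates: ERBB3 is also made by intestinal epithelium, and RET and ELAV proteins also by some enteroendocrine cells. In pooled tissue, fewer cells of a type, less RNA per cell and more RNA from other cells cannot be told apart. This is because each level is a share of the library's counts.

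Libraries held 7007816 to 9947483 counts in genes. Levels are given as CPM, a gene's share of the library's counts after scaling by TMM (factors 0.863 to 1.09). Among markers of the labelled tissue, the villin genes vil1.L and vil1.S, of the epithelial brush border, averaged 1540 and 768 CPM in fed tadpoles and 928 and 628 CPM in unfed tadpoles. The enteric genes were rare by comparison. No gene was found under the symbols of the standard glial markers of mammals gfap and s100b, which does not show that they were absent. The glial label therefore rests on sox10 and erbb3.

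Over all ages, 7 of the 12 members were lower in fed than in unfed tadpoles and none was higher, at an adjusted p under 0.05 in edgeR's quasi-likelihood test. Over all 21715 genes tested, 26.1% were lower and 25.4% higher, so a large part of the transcriptome differed with feeding. The 7 were both copies of erbb3, both nos1 genes, both copies of vip, and sox10.L. All 12 had enough counts to be tested, though sox10.L reached the count filter only through its unfed libraries, where it was higher. The median log2 fold change (fed over unfed) of the 12 was -0.76, and that of all genes was -0.02. In 6 of the 12 members the fed libraries all lay below the unfed ones, which was the case for 14.7% of all genes.

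Over all ages, without a correction for transcript length, the neuregulin receptor gene erbb3 showed the largest log2 difference among the members. In the order experiment 1 at 10 and 13 dpf, then experiment 2 at 10, 13 and 16 dpf, erbb3.L had 19.6, 23.8, 19.6, 10.4 and 15.3 CPM in fed tadpoles, against 63.6, 72.0, 45.3, 36.1 and 39.5 CPM in unfed tadpoles. The highest fed library was below the lowest unfed one, and the unfed libraries of experiment 1 stood highest. The means were 17.8 ± 5.07 CPM fed and 51.3 ± 15.7 CPM unfed (SD, n = 5 each), and on the log2 scale fed tadpoles differed by -1.51 ± 0.17 (SE; adjusted p = 6.214e-05, edgeR). Its other copy, erbb3.S, had 8.70, 15.4, 7.53, 6.56 and 9.10 CPM in fed tadpoles, against 25.9, 27.4, 22.9, 15.4 and 22.8 CPM in unfed tadpoles in the same order. The groups nearly met, since the fed library of experiment 1 at 13 dpf (15.42 CPM) was just under the unfed one of experiment 2 at 13 dpf (15.45 CPM). The log2 fold change of erbb3.S was -1.29 ± 0.18 (adjusted p = 0.0002405, edgeR), and each copy was lower in the fed library of all 5 pairs of the same experiment and age. Removing the trend of each library over transcript length gave -1.10 for erbb3.L (adjusted p = 0.0003419) and -1.06 for erbb3.S (adjusted p = 0.0006487, edgeR). The largest difference among the members was then that of vip.S (-1.14).

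The glial transcription factor gene sox10 was expressed at a low level and its copies gave different calls. In that order, sox10.L had 1.24, 1.58, 1.20, 0.937 and 1.06 CPM in fed tadpoles, against 1.93, 2.14, 1.64, 2.52 and 2.58 CPM in unfed tadpoles. The groups did not overlap, but the values rested on 7 to 13 counts per fed library and 12 to 26 per unfed library. The gene passed the count filter only through the unfed libraries, so its call depends on the group where it was higher. Fed over unfed, the log2 fold change was -0.82 ± 0.26 (adjusted p = 0.01992, edgeR). That call was lost with DESeq2 (adjusted p = 0.05678) and without any 1 of 4 libraries of experiment 2. For sox10.S the range was 1.67 to 2.24 CPM in fed and 1.39 to 3.01 CPM in unfed tadpoles, with the unfed library of experiment 1 at 13 dpf below every fed one. It did not pass the test (-0.29 ± 0.24, adjusted p = 0.3263, edgeR), and was lower in 4 of 5 pairs.

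The receptor gene ret did not pass the test in either copy. The fed libraries had 6.09, 5.22, 3.23, 3.21 and 4.09 CPM of ret.L, against 6.36, 4.60, 6.16, 6.53 and 5.56 CPM in the unfed libraries, in the order above. The fed values of experiment 1 lay within the unfed range and those of experiment 2 below it. On the log2 scale the difference of ret.L was -0.44 ± 0.21 (adjusted p = 0.1082) and that of ret.S was -0.51 ± 0.20 (adjusted p = 0.05158, edgeR). For ret.S the means were 3.61 ± 1.08 CPM in fed and 5.22 ± 1.66 CPM in unfed tadpoles (SD, n = 5 each), with overlapping ranges, and the fed library was lower in all 5 pairs. With the trend of each library over transcript length removed, the log2 fold changes were -0.12 for ret.L (adjusted p = 0.6622) and -0.21 for ret.S (adjusted p = 0.3792, edgeR).

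The neuronal RNA-binding protein genes did not pass the test. Fed libraries had 13.8, 13.6, 14.7, 19.8 and 13.5 CPM of elavl4.L, against 21.7, 18.8, 21.3, 18.4 and 15.6 CPM in unfed libraries. A single fed library, experiment 2 at 13 dpf, stood above the other fed ones and inside the unfed range. Its log2 fold change was -0.35 ± 0.14 (adjusted p = 0.05921, edgeR), and it passed without that library (-0.48, adjusted p = 0.01705). The second gene, elavl4-like, was the one tested member with a higher mean in fed tadpoles: 5.32 ± 1.53 CPM fed and 4.01 ± 0.528 CPM unfed (SD, n = 5 each). It was higher in 4 of 5 pairs and did not pass the test (0.37 ± 0.19, adjusted p = 0.121, edgeR).

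All 4 genes of inhibitory transmission, the nos1 and vip genes, were lower in fed tadpoles. Nitric oxide synthase nos1.L had 10.9, 13.7, 11.5, 15.8 and 14.4 CPM in fed tadpoles, against 26.3, 21.7, 28.6, 26.2 and 18.2 CPM in unfed tadpoles. The groups were apart, closest at 16 dpf, and the log2 fold change was -0.86 ± 0.16 (adjusted p = 0.001185, edgeR). For nos1-like the values were 15.7, 13.5, 12.4, 15.0 and 14.6 CPM in fed tadpoles, against 28.5, 25.0, 33.9, 37.5 and 28.3 CPM in unfed tadpoles. Fed libraries differed little among themselves (14.2 ± 1.27 CPM), and every unfed one (30.7 ± 5.0 CPM) was above them (SD, n = 5 each). Its log2 fold change was -1.10 ± 0.14 (adjusted p = 0.0001439, edgeR). These are long transcripts, of 6580 and 6471 bases. With the length trend removed, the log2 fold change was -0.47 for nos1.L (adjusted p = 0.03588) and -0.71 for nos1-like (adjusted p = 0.002321, edgeR).

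The neuropeptide gene vip.L had 22.5, 18.8, 30.5, 33.3 and 25.2 CPM in fed tadpoles, against 26.6, 31.1, 42.0, 53.2 and 66.6 CPM in unfed tadpoles. Fed and unfed ranges overlapped across the experiments, yet within each pair the fed library was the lower one. Its log2 fold change was -0.70 ± 0.16 (adjusted p = 0.004339, edgeR). The other copy, vip.S, had 15.5, 9.96, 11.4, 13.7 and 13.5 CPM in fed tadpoles, against 19.2, 20.4, 24.1, 26.2 and 24.1 CPM in unfed tadpoles. Its groups did not overlap, and its log2 fold change was -0.83 ± 0.15 (adjusted p = 0.0012, edgeR). The short vip transcripts, of 1668 and 1091 bases, differed more with the length trend removed, by -0.88 for vip.L and -1.14 for vip.S on the log2 scale.

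**Figure D1:**
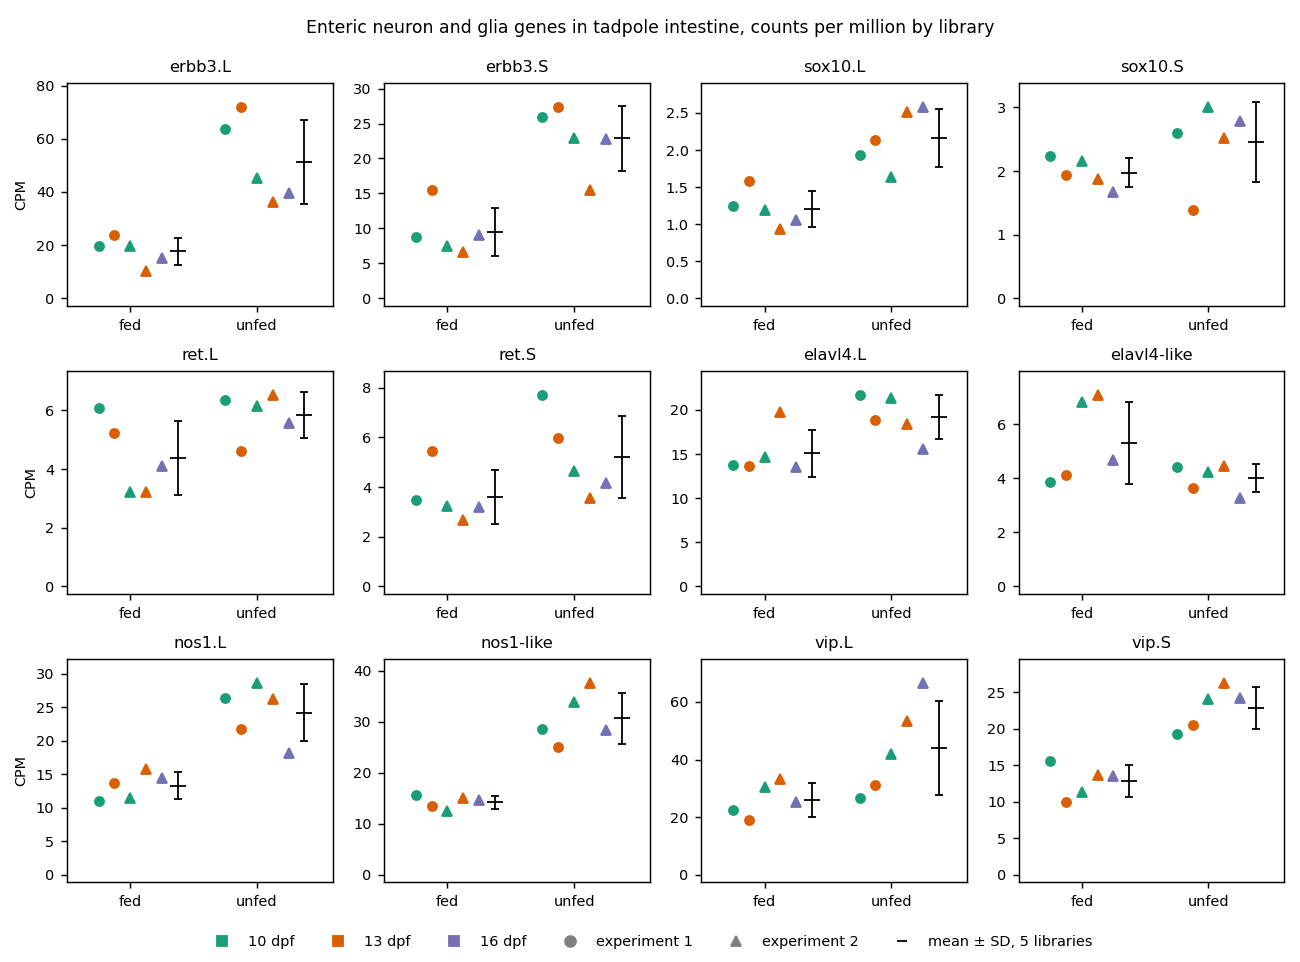
Each panel plots 1 gene, with CPM on a linear axis and the 5 fed libraries left of the 5 unfed ones; colours give the age, shapes the experiment, and the black bar the mean ± SD. Fed libraries of erbb3.L lie between 10.4 and 23.8 CPM, below all unfed ones, whereas elavl4-like has its highest values in fed tadpoles.

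Per kilobase of transcript, the order of levels in unfed tadpoles ran from vip to sox10. The mean in unfed tadpoles was 26.3 ± 9.79 CPM per kb for vip.L and 20.9 ± 2.66 for vip.S, and these copies overlapped. After a gap came erbb3.L (6.87 ± 2.10), elavl4.L (6.66 ± 0.861), erbb3.S (5.24 ± 1.05), nos1-like (4.74 ± 0.772) and nos1.L (3.68 ± 0.638), where each neighbour overlapped the next. Apart from these and from what followed was elavl4-like (1.64 ± 0.216). Last came ret.L (1.09 ± 0.146), ret.S (1.0 ± 0.32), sox10.S (0.731 ± 0.186) and sox10.L (0.656 ± 0.12; all SD, n = 5), again with each overlapping the next. In fed tadpoles vip.L (15.6 ± 3.53 CPM per kb) and vip.S (11.7 ± 1.99) were also the highest, followed by elavl4.L (5.24 ± 0.934) and erbb3.L (2.38 ± 0.679).

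By age, 4 of 12 members were lower in fed tadpoles at 10 dpf and 6 of 12 at 13 dpf, and none was higher at either (edgeR, adjusted p under 0.05). Over all genes 10.5% were lower and 12% higher at 10 dpf, and 15.8% were lower and 17.6% higher at 13 dpf, with 2 fed and 2 unfed libraries at each age. The erbb3 copies and both nos1 genes passed at each age, and the vip copies at 13 dpf. At 10 dpf the log2 fold changes were -1.42 ± 0.28 for erbb3.L, -1.59 ± 0.28 for erbb3.S, -1.29 ± 0.21 for nos1.L and -1.14 ± 0.25 for nos1-like (adjusted p 0.002634 to 0.008586, edgeR). At 13 dpf they were -1.67 ± 0.28, -0.98 ± 0.28, -0.70 ± 0.21 and -1.12 ± 0.25 for the same genes in that order, -0.70 ± 0.21 for vip.L and -0.98 ± 0.26 for vip.S (adjusted p 0.001717 to 0.02507, edgeR). These calls are less firm than those over all ages: without the experiment as a block, erbb3.L at 10 dpf (adjusted p = 0.05941) and erbb3.S, nos1.L and vip.L at 13 dpf (adjusted p 0.1237, 0.07324 and 0.2206) did not pass. With DESeq2, nos1.L (adjusted p = 0.09744) and vip.L (adjusted p = 0.07151) at 13 dpf did not pass either. With the length trend removed, the 13 dpf log2 fold changes were -0.28 for nos1.L, which then failed (adjusted p = 0.3088), and -0.71 for nos1-like (adjusted p = 0.04564, edgeR). The counts fell to 1 of 12 at 10 dpf without the unfed library of experiment 2 at that age, and to 3, 2 and 1 of 12 at 13 dpf without the fed library of experiment 1, the unfed library of experiment 1 and the unfed library of experiment 2 at that age.

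**Figure D2:**
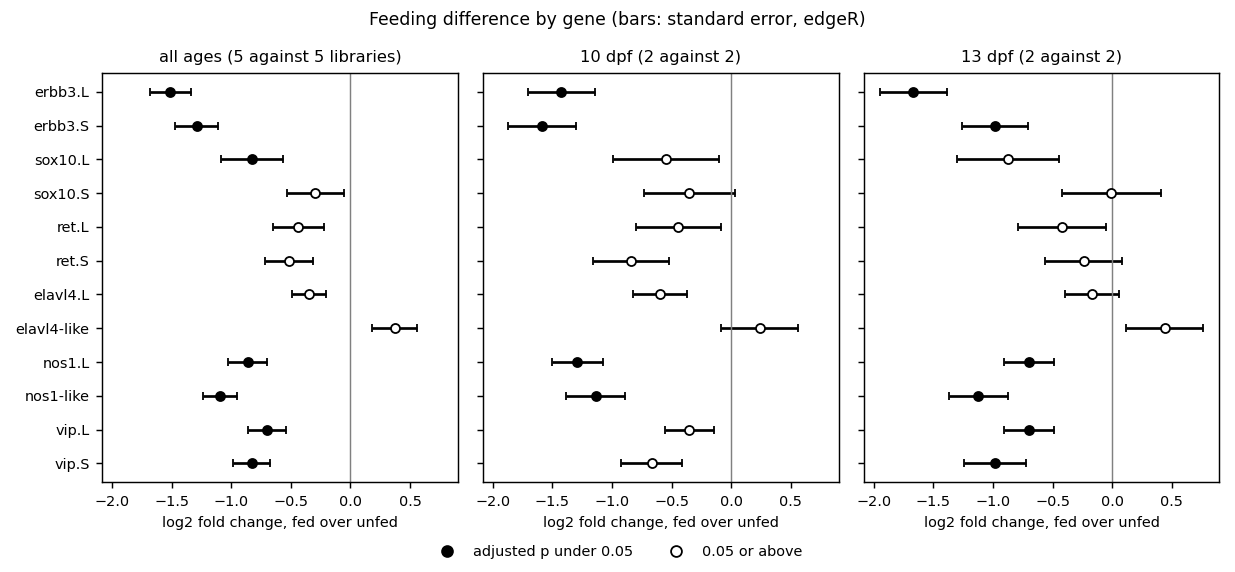
The log2 fold change (fed over unfed) of the 12 members is plotted over all ages, at 10 dpf and at 13 dpf, with standard errors; filled points have an adjusted p under 0.05 in edgeR. Over all ages the filled points run from -0.70 for vip.L to -1.51 for erbb3.L, and elavl4-like is the one point right of 0.

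No member's feeding difference changed between 10 and 13 dpf at an adjusted p under 0.05 in edgeR, and 0 of 12 did so at an unadjusted p under 0.05 or with DESeq2 after adjustment. Over all genes 0% passed. Among the members nos1.L came nearest, with a difference 0.60 ± 0.30 closer to 0 at 13 than at 10 dpf on the log2 scale (adjusted p = 0.9947, edgeR). Age itself gave no call either: 0 of 12 members differed between 13 and 10 dpf in fed tadpoles (0% of all genes) or in unfed tadpoles (0.00921% of all genes), none at an unadjusted p under 0.05 and none with DESeq2 after adjustment. In unfed tadpoles vip.L had a log2 difference of 0.29 ± 0.21 between 13 and 10 dpf (adjusted p = 0.9418, edgeR), and its level at 16 dpf in experiment 2 was above those at 13 and 10 dpf.

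At 16 dpf, where each feeding state had 1 library and no test was run, 11 of 12 members had a lower CPM in the fed library and 7 of 12 had a ratio under 1/1.5. Over all genes these shares were 51.4% and 25.5%. The log2 CPM difference (fed minus unfed) was -1.39 for vip.L, -1.35 for erbb3.L, -1.30 for erbb3.S, -1.12 for sox10.L, -0.95 for nos1-like and -0.33 for nos1.L. The value of vip.L was the lowest of its 5 pairs, the others being -0.24 to -0.72, and that of nos1.L was the nearest to 0, the others being -0.65 to -1.30.

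**Figure D3:**
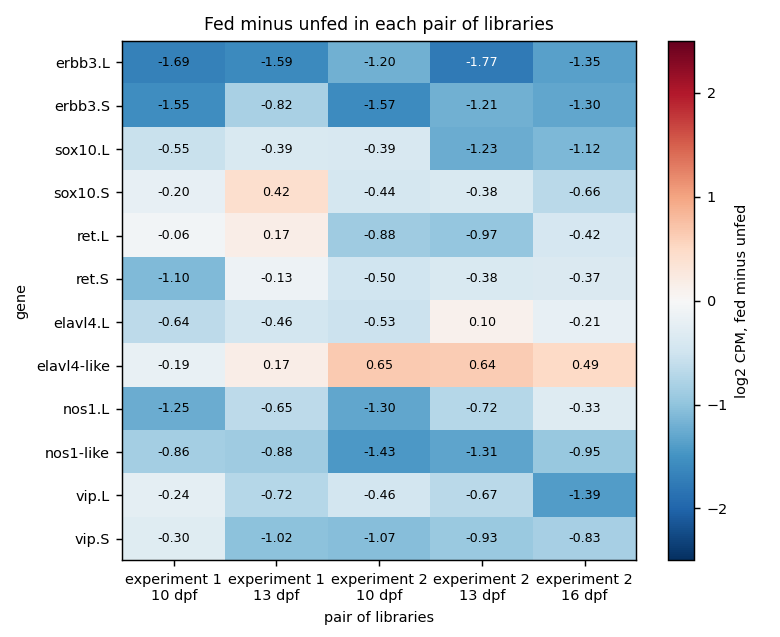
The colours and printed numbers give the log2 CPM of the fed minus that of the unfed library for each member (rows) in each of the 5 pairs of the same experiment and age (columns). Of the 12 members, 8 are negative in every pair, and elavl4-like is positive in 4 of 5. The share of all genes negative in every pair was not computed, so the count of 8 only describes the members.

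The feeding difference was also compared between the experiments. No member's differed at an adjusted p under 0.05 (edgeR and DESeq2, 0% of all genes in edgeR), and 1 of 12 did so at an unadjusted p under 0.05. This was ret.L, with a difference 0.85 ± 0.37 more negative in experiment 2 on the log2 scale (adjusted p = 0.7243, edgeR). In the pairs of experiment 1 ret.L stood at -0.06 and 0.17, and in those of experiment 2 at -0.88, -0.97 and -0.42. The level itself differed between experiments for 0 of 12 members in edgeR after adjustment. Over all genes 4.45% did, so the count is near that share and says nothing particular to the members. Shares of all genes at an unadjusted p under 0.05 were not computed for any comparison. At an unadjusted p under 0.05, vip.L (0.67 ± 0.18) was higher in experiment 2 than in experiment 1, and erbb3.L (-0.66 ± 0.19), erbb3.S (-0.61 ± 0.20) and ret.S (-0.68 ± 0.22) were lower. With DESeq2, 1 of 12 passed after adjustment.

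The share of the L copy was measured as counts per length, against the S copy or, for nos1 and elavl4, against nos1-like and elavl4-like. For erbb3 the L copy held 52.5 ± 5.78% in fed and 56.3 ± 4.15% in unfed tadpoles (SD, n = 5 each), for vip 56.8 ± 5.96% and 54.4 ± 6.59%, and for ret 53.8 ± 5.91% and 52.6 ± 9.0%, in fed and unfed tadpoles. For nos1 it held 47.7 ± 4.09% in fed and 43.7 ± 3.77% in unfed tadpoles. The share for sox10 was 38.2 ± 4.47% in fed and 47.8 ± 9.38% in unfed tadpoles, with overlapping ranges. For elavl4 the L copy held 71.0 ± 4.04% in fed and 80.2 ± 1.43% in unfed tadpoles. The ranges, 64.7 to 75.3% fed and 77.8 to 81.5% unfed, did not overlap. In a two-sided exact permutation test over the 10 libraries, the smallest p the design allows was reached (p = 0.007937), and adjusted over the 7 gene pairs compared it was 0.05556, so it failed the correction. No pair could pass alone after that adjustment, whatever its difference. For erbb3, nos1, ret, sox10 and vip the adjusted p ran from 0.2037 to 0.8016 in the same exact permutation test, which does not show that their shares were equal. Before adjustment, 1 library each decided the test for nos1 (exact p = 0.1349, and 0.01587 without the fed library of experiment 1 at 10 dpf) and for sox10 (exact p = 0.0873, and 0.02381 without the unfed library of experiment 2 at 10 dpf). How reads that match both copies were counted is not given in the sources used here, so part of a copy's reads may belong to the other.

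**Figure D4:**
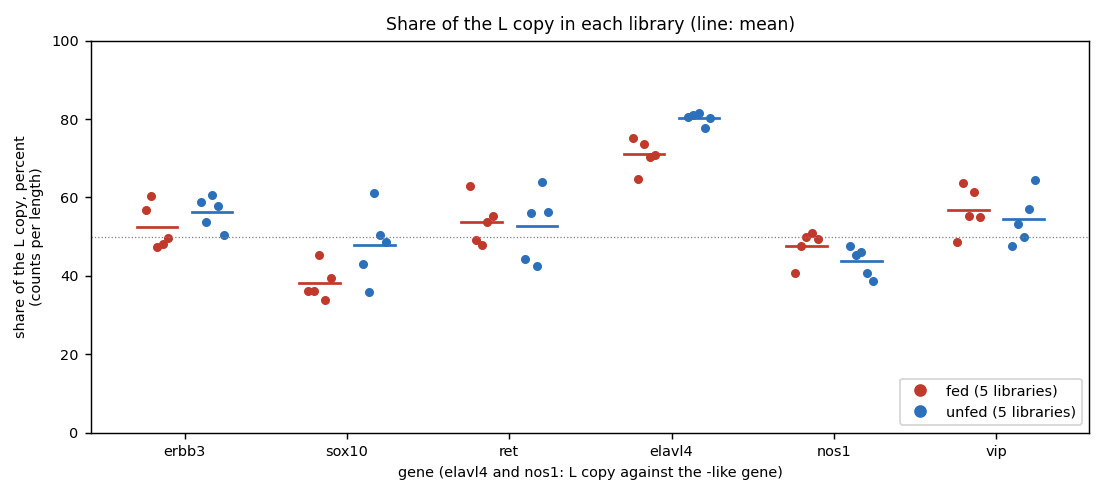
The share of the L copy in the summed counts per length of both copies (for nos1 and elavl4, of the L copy and the -like gene) is plotted in percent for 6 genes, with the 5 fed libraries left of the 5 unfed ones and a line at each mean. For elavl4 the fed libraries lie between 64.7 and 75.3% and the unfed ones between 77.8 and 81.5%, while in the other 5 genes the groups overlap.

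Genes that act with the members were taken from lists chosen with earlier results of these data known. In the list of GDNF, RET and endothelin signalling, 5 of 11 tested genes were lower in fed tadpoles and 0 higher over all ages (adjusted p under 0.05, edgeR), with a median log2 fold change of -0.50 against -0.02 for all genes. Over all genes tested, 26.1% were lower, the share beside which each count of partners is to be read. The RET ligand gene gdnf.L averaged 4.98 ± 0.957 CPM in fed and 9.38 ± 1.43 CPM in unfed tadpoles (SD, n = 5 each), a log2 fold change of -0.91 ± 0.19 (adjusted p = 0.002159). The endothelin receptor gene ednrb.L, whose product keeps crest progenitors undifferentiated in mice, averaged 2.99 ± 0.993 CPM fed and 6.13 ± 0.925 CPM unfed (-1.04 ± 0.22, adjusted p = 0.002578). The gene of the enzyme that activates endothelin, ece1.L, averaged 28.8 ± 6.14 CPM fed and 63.1 ± 12.8 CPM unfed (-1.13 ± 0.13, adjusted p = 8.39e-05), and that of the adhesion protein L1, l1cam.S, had -0.95 ± 0.17 (adjusted p = 0.0008954). The endothelin gene edn3.S also passed (-0.90 ± 0.33, adjusted p = 0.03676), but not without any 1 of 6 libraries. The other copies gdnf.S (-0.50 ± 0.28, adjusted p = 0.1614) and ednrb.S (-0.38 ± 0.26, adjusted p = 0.2392) did not pass. Too few counts for the filter were found for edn3.L, which averaged 0.725 ± 0.714 CPM fed and 0.235 ± 0.22 CPM unfed. The co-receptor gene gfra3.L had 0.52 ± 0.22 and did not pass (adjusted p = 0.07251; all edgeR). With the length trend removed, gdnf.L had -0.55 (adjusted p = 0.03576) and l1cam.S -0.51 (adjusted p = 0.04076, edgeR).

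Among the neuregulin and ErbB partners, 5 of 7 tested genes were lower (26.1% of all genes) and 0 higher, with a median log2 fold change of -0.66. The gene of a related receptor, egfr.S, had 3.51 ± 0.566 CPM in fed and 7.24 ± 1.64 CPM in unfed tadpoles (-1.04 ± 0.20, adjusted p = 0.001641, edgeR). It was the one of the 5 that passed with the length trend removed (adjusted p = 0.01342). The others were egfr.L (-0.63 ± 0.16), erbb2.L, whose product is the partner with which ERBB3 signals (-0.46 ± 0.16), and the feedback inhibitor genes errfi1.S (-0.69 ± 0.24) and errfi1.L (-1.71 ± 0.59). With the length trend removed their adjusted p were 0.1019, 0.5191, 0.1053 and 0.06841 in that order (edgeR), and the last 3 also failed without any 1 of 5 or 6 libraries. The call of erbb2.L was also lost without the experiment as a block (adjusted p = 0.08173).

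Among the partners of nitric oxide and VIP signalling, 7 of 9 tested genes were lower (26.1% of all genes) and 0 higher. Their median log2 fold change was -0.60. The nitric oxide receptor subunit gucy1b1.S averaged 17.4 ± 2.01 CPM in fed and 30.9 ± 3.89 CPM in unfed tadpoles (-0.83 ± 0.13, adjusted p = 0.0003974). The kinase that cyclic GMP activates, prkg1.S, had -0.94 ± 0.17 (adjusted p = 0.001083), and the phosphodiesterase that degrades cyclic GMP, pde5a.S, had -1.04 ± 0.14 (adjusted p = 0.0001633). The VIP receptor gene vipr2.L averaged 6.94 ± 1.42 CPM fed and 13.5 ± 3.94 CPM unfed (SD, n = 5 each; -0.94 ± 0.17, adjusted p = 0.0009374; all edgeR). These 4 were lower in the fed library of all 5 pairs. With the length trend removed, pde5a.S had -0.63 (adjusted p = 0.005698), gucy1b1.S -0.59 (adjusted p = 0.00483) and prkg1.S -0.67 (adjusted p = 0.01058, edgeR). For vipr2.L the value was then -1.20 (adjusted p = 0.0002384, edgeR). Another of the 7, pde3a.L (-0.60), was not called after that removal (-0.28, adjusted p = 0.1552, edgeR). The call of nosip.S (-0.44, adjusted p = 0.0145, edgeR) was lost without any 1 of 3 libraries. Of 6 further partners found by their deposited descriptions and added after the data were seen, 3 were lower (26.1% of all genes) and 0 higher. They were a VIP receptor 2-like gene (-1.18 ± 0.16, adjusted p = 0.0001552), a gene described as GDNF family receptor alpha-1-like (-0.78 ± 0.15, adjusted p = 0.001491) and a second nos1ap gene (-0.70 ± 0.15, adjusted p = 0.002923, edgeR). That alpha-1-like gene did not pass without the experiment as a block (adjusted p = 0.06295, edgeR). A second gfra1-like gene (-0.19 ± 0.23, adjusted p = 0.5008) and both gfra2-like genes (adjusted p 0.2135 and 0.2571, edgeR) were the partners that did not pass.

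**Figure D5:**
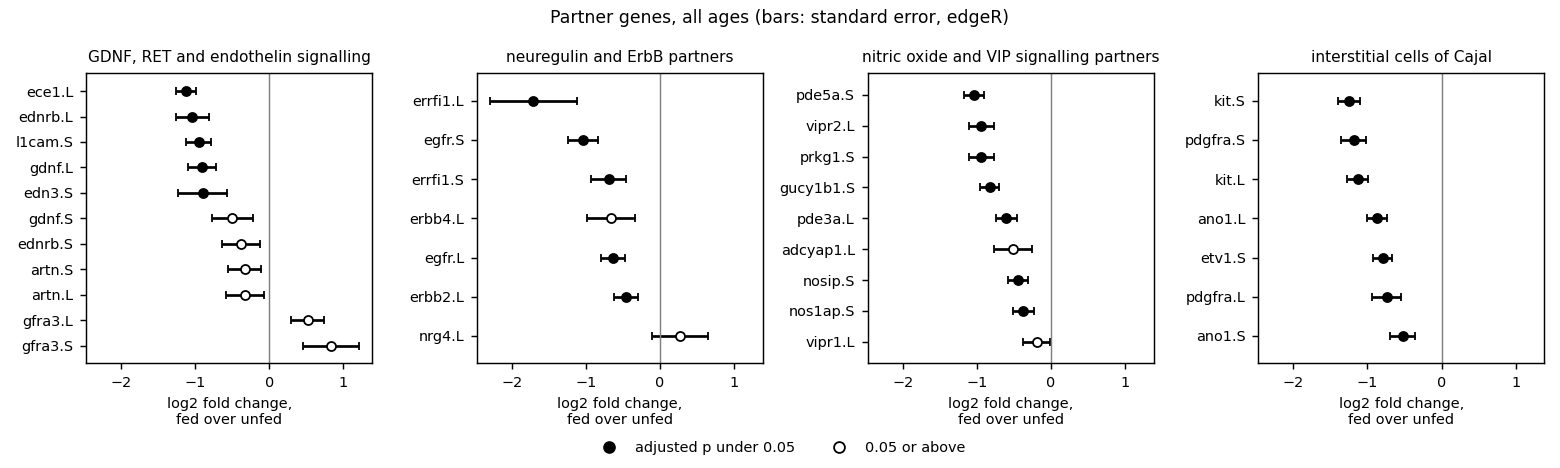
Log2 fold changes (fed over unfed, all ages) with standard errors are plotted for the tested genes of 3 partner lists and of the list of interstitial cells of Cajal; filled points have an adjusted p under 0.05 in edgeR. All filled points lie left of 0, between -0.37 for nos1ap.S and -1.71 for errfi1.L.

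Other genes of enteric neurons did not move one way. Of 35 tested, 10 were lower and 6 higher in fed tadpoles, with a median log2 fold change of 0.04. Among all genes tested, 26.1% were lower and 25.4% higher. The share lower in the list was thus near that of all genes and says nothing particular to the list. The transcription factor genes tbx3.L (-1.31 ± 0.18) and tbx3.S (-1.24 ± 0.18) and the neuronal microtubule protein gene map2.L (-1.22 ± 0.17) were lower (adjusted p 0.0002054 to 0.0002342, edgeR). For map2.L the value was -0.73 with the length trend removed (adjusted p = 0.005239, edgeR). The opioid peptide genes penk.S and penk.L were higher: penk.S averaged 43.9 ± 8.07 CPM in fed and 24.6 ± 6.28 CPM in unfed tadpoles (SD, n = 5 each; 0.84 ± 0.13, adjusted p = 0.0004517, edgeR), and penk.L had 0.82 ± 0.16 (adjusted p = 0.001467, edgeR). The neuropeptide gene npy.L was also higher (2.30 ± 0.40, adjusted p = 0.0007664, edgeR). Its level was low, at 1.76 ± 0.367 CPM in fed and 0.36 ± 0.275 CPM in unfed tadpoles. It had 84 counts in all 10 libraries and reached the count filter only through its fed libraries. The call of npy.L thus depends on the group where it was higher, and the gene was not tested under every alternative. The cholinergic marker chat.L, the gene of the enzyme that makes acetylcholine, failed the filter with 83 counts in all 10 libraries (0.556 ± 0.335 CPM fed and 1.30 ± 0.588 CPM unfed). Another cholinergic gene, slc18a3.L, was tested and was lower in fed tadpoles (-0.71 ± 0.21, adjusted p = 0.01551, edgeR), in all 5 pairs. How its call depends on the processing was not tested. Its other copy, slc18a3.S, failed the filter. The summed level of the list was 451.5 to 552 CPM in fed and 448 to 510.1 CPM in unfed tadpoles, so the sums overlapped between the groups. The sum is weighted to abundant genes such as syt1.L (mean 149 CPM fed and 124 CPM unfed) and ddc.L (71.2 and 51.4 CPM). It therefore does not show that the list as a whole was unchanged.

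Of 24 tested genes of enteric glia and neural crest, 6 were lower and 2 higher, with a median log2 fold change of -0.09, so the share lower was near the 26.1% of all genes and says nothing particular to the list. The cell adhesion genes ncam1.S (10.0 ± 1.32 CPM fed and 23.6 ± 3.96 CPM unfed, SD, n = 5 each; -1.23 ± 0.14, adjusted p = 6.393e-05, edgeR) and ncam1.L (-0.77 ± 0.14, adjusted p = 0.0009357, edgeR) were lower. So was cdh19.S, a cadherin gene of the crest-derived glial lineage in mammals (2.0 ± 0.449 CPM fed and 4.71 ± 1.31 CPM unfed; -1.19 ± 0.26, adjusted p = 0.003197, edgeR). With the length trend removed, ncam1.S had -0.80 (adjusted p = 0.0012) and the call of ncam1.L was lost (adjusted p = 0.08897, edgeR). Higher were the gap junction gene gjb1.L (1.10 ± 0.18, adjusted p = 0.0005497) and the lipid carrier gene apoe.S (0.68 ± 0.22, adjusted p = 0.02123, edgeR), which epithelial and other cells also express. The call of apoe.S was lost without any 1 of 5 libraries.

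Markers of other gut cells moved with feeding too, and their part in the members' differences was not tested. Over all genes tested, 26.1% were lower in fed tadpoles. All 7 tested genes of interstitial cells of Cajal and related interstitial cells, the pacemaker and signal-relaying cells of gut muscle, were lower in fed tadpoles (median log2 fold change -0.87), but pdgfra.L, a gene of the related cells, was not called with the length trend removed (-0.74, and -0.37 with adjusted p = 0.1662, edgeR). Their summed level was 100.2 to 123.3 CPM fed and 195.6 to 235.6 CPM unfed, and no marker was at 0 in all libraries. The pacemaker receptor gene kit.S, for example, averaged 23.3 ± 4.63 CPM fed and 55.3 ± 8.91 CPM unfed (-1.25 ± 0.15, adjusted p = 9.6e-05, edgeR). Of 13 leukocyte genes, 12 were lower and 0 higher, and their summed level was 164.3 to 216.3 CPM fed and 261.9 to 609.3 CPM unfed, again with no marker at 0 everywhere.

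In 5 further lists more genes were higher than lower in fed tadpoles, where 25.4% of all genes were higher. Of 16 smooth muscle genes, 7 were higher and 3 lower (summed 7502 to 18470 CPM fed and 6827 to 11960 CPM unfed, none at 0 everywhere). The smooth muscle regulator myocd.S was among the lower ones (-1.72 ± 0.14, adjusted p = 1.042e-05) and the contractile protein gene tagln.S among the higher ones (1.11 ± 0.27, adjusted p = 0.00562, edgeR). Enteroendocrine genes were higher in 10 of 20 and lower in 1 (613.3 to 833 CPM fed and 341 to 536.9 CPM unfed), and epithelial genes higher in 3 of 11, near the share of all genes, and lower in 0 (8858 to 10860 CPM fed and 3155 to 10660 CPM unfed), with no marker of either list at 0 everywhere. Genes of dividing cells were higher in 11 of 12 and lower in 0 (307.6 to 644.1 CPM fed and 84.5 to 223.1 CPM unfed), and 1 of the 14 genes found was at 0 everywhere. Striated muscle genes were higher in 2 of 6 and lower in 1 (60.2 to 255.1 CPM fed and 41.2 to 108.6 CPM unfed), with 1 of 16 genes found at 0 everywhere. No gene of the brain and spinal cord list passed the filter. Of its 12 genes, 8 had 0 counts in every library (both copies of olig2, otx2 and en2, with neurod6.L and mag.L), and the list summed to 0.402 to 1.44 CPM fed and 0.821 to 1.99 CPM unfed.

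Across the 10 libraries, 55 of 66 pairs of members had a positive Pearson correlation of log2 CPM, with a median r of 0.53 and a range from -0.76 to 0.96. Of the 11 negative pairs, 10 were those of elavl4-like, which was negative with 10 of the other 11 members, lowest with ret.L. These points share the libraries and divide by feeding state, so the values describe the members and are given without a test. Within the glial members, sox10.S had r of 0.245 to 0.366 with erbb3.L, erbb3.S and sox10.L, which had 0.824 to 0.948 among themselves. Their mean profile therefore describes sox10.S less well. Among 21683 other tested genes with a mean of at least 1 CPM, those most like the mean profile of the 4 glial members (erbb3 and sox10) were clk1.L (r = 0.986), a gene described as sodium channel protein type 2 subunit alpha-like (r = 0.986), slc49a4.S (r = 0.980), cables1.L (r = 0.979) and LOC108708826 (r = 0.976). Most like the mean profile of the 8 neuronal members were LOC108712698 (r = 0.975), spsb3.S (r = 0.974), the chloride channel gene ano1.L (r = 0.969), trim65.L (r = 0.967) and LOC108706470 (r = 0.964), each over the 10 libraries.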

How the data were processed

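RNA from intestinal tubes of 5 fed and 5 unfed tadpole pools was sequenced. Per the submitters' processing notes, HISAT2 and featureCounts were used; the sources used here give no version, genome build, strand or multi-mapping setting. Deposited raw counts cover 63876 transcript rows and come, per the file headers, with the transcript length in bases and RPKM values; the 10 deposited RPKM columns were not used. Gene rows had been assumed when the tests were chosen. Since 83.9% of 9712 genes with several variants and at least 100 counts had their top variants within 10 percent of each other, each gene was represented by its variant with the highest total. Rows were named through a RefSeq gene table (Xenopus_laevis_v10.1, names only), giving 34309 genes, of which 7403 have only their deposited description. Left out were unnamed rows (0.0738% of counts), rows lacking an accession (0.136%) and all variants not chosen. The libraries held 12664503 to 17967762 deposited counts, and 7007816 to 9947483 in the chosen variants.

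In R 4.3.3, genes were filtered with filterByExpr by feeding state, scaled by TMM and tested with edgeR 4.0.16 (robust quasi-likelihood F test). P-values were adjusted by Benjamini-Hochberg across 21715 genes. The all-ages fit had experiment, age and feeding as terms; the comparisons by age came from a fit with experiment and 6 groups; a feeding by experiment term was tested in the first. The experiment was the block because the labels divide the libraries into 2 experiments, and the difference between experiments correlated between groups across genes (r 0.339 to 0.514 over 6 pairs of groups). Replicate libraries differed by more than counting noise (chi-square per degree of freedom 17.1 to 54.0), so all were kept. Log2 CPM used a prior count of 2. The shares of gene copies were compared by exact permutation (252 arrangements), adjusted over 7 pairs. Alternatives were DESeq2 size factors, no filter, DESeq2 1.42.0, no block, the age from the stage field, sums over variants, a length trend removed and each library left out. The scripts were tested on simulated data.

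Members and gene lists were chosen with earlier results of these data known. Of the names in the rule, 2 are not reported here, and a gene pair of 1 of them stayed in the adjustment over 7. All other members are named, plus up to 6 genes per list by smallest p in the all-ages fit and the partners added by description. Also named are markers for their absence or level, and the cholinergic gene slc18a3.L beside chat.L.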

Additional observations from a re-analysis of the deposited data

Results flagged for a closer look

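Among the fed libraries, 3 members had a library far from the other 4 by Dixon's criterion, which flags about 1 in 20 groups by chance. The fed library of experiment 2 at 13 dpf had 19.81 CPM of elavl4.L, where the gap to the next library was 0.808 of the range. The fed library of experiment 1 at 13 dpf had 15.42 CPM of erbb3.S (0.714 of the range) and 5.465 CPM of ret.S (0.713 of the range), in each case the highest of the 5. Without the fed library of experiment 1 at 13 dpf, the log2 fold change of ret.S over all ages was -0.62 (adjusted p = 0.03243, edgeR).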

How the results depend on the processing

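The number of members lower in fed tadpoles over all ages was 6 to 8 under all 17 alternatives (7 as reported; none higher in any), 6 to 8 when 1 library was left out, 6 with DESeq2 and 7 with no block for experiment. Of the 7 calls, 6 held under every alternative run, with sox10.L lost under 5. Calls were gained for elavl4.L with counts summed over variants (adjusted p = 0.04826), for ret.L without the unfed library of experiment 1 at 13 dpf (0.04634) and for ret.S with DESeq2 size factors (0.04992). By age, leaving out 1 library gave 1 to 6 lower members at 10 dpf (4 as reported) and 1 to 6 at 13 dpf (6 as reported); without the experiment as a replicate block the counts were 3 and 3. The block changed no call over all ages among the members. Stage-field ages were used in the all-ages fit and between experiments, and the comparisons by age were not run with them. By those ages, experiment 1 held only fed libraries at 10 dpf and only unfed ones at 13 dpf. Between experiments, 0 members passed as reported, 1 with DESeq2, 2 with the age from the stage field and 0 to 3 with 1 library left out. Of 67 partner and marker genes called over all ages, 50 held under every alternative in which they were tested. Of these, npy.L was not tested in all alternatives. Left out singly, libraries moved ckm.L (-0.40, not called) between -0.828 and 0.93, turning it to 0.30 and 0.93 without the fed or the unfed library of experiment 1 at 13 dpf. They moved the L share of ret (1.15 points, not called) between -1.37 and 3.98 points, with -1.11, -0.9334 and -1.37 points without the fed library at 10 dpf, the unfed at 10 dpf or the unfed at 13 dpf of experiment 1. The causes were not tested. Depth limits sox10 (7 to 28 counts).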
